A study of Mus musculus with 36 samples.

Results

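In livers of male C57BL/6 mice, 7 libraries from a ketogenic diet were set against 6 from a non-ketogenic high-fat diet. The comparison took every gene of the deposited liver table and 13 of the 36 libraries of the series. The members were the liver libraries whose titles name these diets. The mice were 12 months old, came from an aged rodent colony, and carried no genetic change or drug. Per the labels, the ketogenic diet drew 90% of its energy from fat and 10% from protein. The high-fat diet drew 75% from fat, 10% from protein and 10% from carbohydrate, and both were eaten for 1 week after habituation to the control diet. The control diet, with 12% fat, 10% protein and 78% carbohydrate, gave 5 further liver libraries, which entered the same fit. Tissue was taken between midnight and 3 a.m., within the feeding period. Both diets are rich in fat. No carbohydrate figure is given for the ketogenic diet in the sample labels, and the series' design text gives 10% carbohydrate for all diets, so the difference in carbohydrate is not settled by the labels.

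The liver makes ketone bodies from acetyl-CoA when fatty acid oxidation outruns the citric acid cycle, which happens when carbohydrate and insulin are low. Fatty acids also act as ligands of PPAR alpha, a nuclear receptor that binds DNA together with RXR and turns on genes of fatty acid oxidation and ketone synthesis. Insulin and glucose act in the other direction through Srebp-1c and Chrebp, which turn on glucose use and fatty acid synthesis. A comparison of these diets asks which liver genes differ between a ketogenic diet and a fat-rich diet that is described as not ketogenic.

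No gene passed the test. Of 33495 genes in the table, 13374 had enough counts to be tested, and 0 (0%) differed at an adjusted p under 0.05 by edgeR's quasi-likelihood test with Benjamini-Hochberg adjustment. The smallest adjusted p was 0.999. An unadjusted p under 0.05 was found for 426 genes (3.19%), 222 of them higher on the ketogenic diet (1.66%) and 204 lower (1.53%), where 669 would be due if no gene differed. DESeq2 called 1 gene, Cyp26a1, with 492 at an unadjusted p under 0.05. limma-voom called 0, with 408. The edgeR test called 0 without control library 0, with 748 and a smallest adjusted p of 0.346. On the 13 libraries alone it also called 0, with 670 and a smallest adjusted p of 0.865. The count of 426 thus depended on which control libraries entered the fit. DESeq2 on the 13 libraries alone, tried after the data had been seen, called 4 genes: Cyp26a1, G0s2, Slc3a1 and Tbx3. The estimates were wide rather than uniformly near 0: the median standard error was 0.23 on the log2 scale, and the 95% interval lay within a 2-fold change either way, that is within log2 -1 to 1, for 9864 genes (73.8%). Below, "higher" and "lower" describe estimates and library values, and no gene named is past the threshold unless the sentence says so.

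The total count averaged 27.1 ± 3.91 M (SD) over the ketogenic libraries, from 20.9 to 32.8 M, and 26.6 ± 5.46 M over the high-fat ones, from 19.3 to 34.1 M (two-sided exact permutation p = 0.852). The share of mitochondrial transcripts was 64.2% ± 5.32 on the ketogenic diet and 60.5% ± 3.65 on the high-fat diet (two-sided exact permutation p = 0.185). The 14 hepatocyte markers, albumin among them, were all tested, with a summed level of 38657 to 56714 CPM (counts scaled to library size) in ketogenic and 41919 to 54938 CPM in high-fat libraries. Several libraries stood apart from others of their diet. High-fat 2 and 3 were high in interferon, cell cycle and glutathione transferase genes. High-fat 5 and ketogenic 6 were high in genes of fatty acid synthesis. Ketogenic 0, 1 and 4 were high in short transcripts. The labels do not say what sets these mice or libraries apart, and values without them are given beside the results that they move most. The sets left out were chosen after the data had been seen. In the genes that set a library apart, the change without it follows in part from that choice and is not a test. Replicate numbers name the libraries as in the titles.

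Cyp26a1, the cytochrome that breaks down retinoic acid in liver, had the smallest p of all genes. It lies at chr19:37772344-37776018 on the plus strand (mm9). Ketogenic libraries spanned 1.65 to 6.65 CPM with a median of 2.96, and high-fat libraries 6.12 to 21.5 CPM with a median of 13.5. The groups overlapped only where ketogenic 2, at 6.65 CPM, lay above high-fat 4, at 6.12 CPM. The log2 difference was -1.78 ± 0.38 (SE; 95% interval -2.57 to -0.98), or 0.292-fold, with an unadjusted p of 0.000155. All 7 ketogenic libraries lay below the high-fat mean. DESeq2 on the same 18 libraries gave Cyp26a1 an adjusted p of 0.0104, and edgeR's likelihood ratio test gave 0.0394. Ketogenic livers averaged 3.76 ± 1.89 CPM (SD, n = 7), against 12.8 ± 5.32 CPM in high-fat livers (SD, n = 6) and 12.9 ± 9.0 CPM in control livers (SD, n = 5). The difference was -1.49 without high-fat 2 and 3 and -1.89 without ketogenic 6 and high-fat 5. The Cyp26a1 promoter is shown because it holds a direct repeat of AGTTCA with 5 bases between, the kind of element that retinoic acid receptors bind. The sequence is from RefSeq (GRCm38.p6, chr19:37697558-37697857, plus strand), and the repeat, here read on the opposite strand, is in capitals.
Cyp26a1: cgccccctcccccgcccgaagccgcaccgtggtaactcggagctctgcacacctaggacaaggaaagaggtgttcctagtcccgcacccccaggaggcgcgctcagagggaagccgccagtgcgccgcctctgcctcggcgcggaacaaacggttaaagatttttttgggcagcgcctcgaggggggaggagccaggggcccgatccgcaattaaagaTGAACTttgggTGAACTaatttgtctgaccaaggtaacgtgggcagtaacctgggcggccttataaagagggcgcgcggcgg

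The repeat begins 32 bases before the annotated start of transcription. The exact repeat, searched on both strands, occurs in 8 of 32851 RefSeq promoter windows of the same length (0.0244%). This motif was added to the search after the values of Cyp26a1 had been seen. The same letters describe the window only, and no binding was measured here. RefSeq windows were at hand for 80 of 97 genes looked at. Cyp4a14, Cyp4a10, Angptl4 and Vnn1 were among those without a window, so their promoters were not searched. Among the other motifs, the direct repeat AGGTCA with 1 base between had no match in the 80 genes, exact or with 1 mismatch. This repeat is the form that PPAR and RXR bind. Over all windows it occurred in 0.0396% when exact and in 0.554% with up to 1 mismatch. In all, 6 of the 80 genes had a match to any motif searched. The amino acid response core TTGCATCA (0.895% of windows) occurred in Fgf21, G6pc and Got1, and the sterol element, searched as TCACNCCAC (1.24%), in Cyp2a4. The cyclic AMP element TGACGTCA, a palindrome found in 1.79% of windows, occurred in a Slc25a25 promoter, 150 bases before a start of transcription. That window (RefSeq, GRCm38.p6, chr2:32424017-32424316, minus strand) is shown because Slc25a25 was second in p among the genes higher on the ketogenic diet, with the element in capitals.
Slc25a25: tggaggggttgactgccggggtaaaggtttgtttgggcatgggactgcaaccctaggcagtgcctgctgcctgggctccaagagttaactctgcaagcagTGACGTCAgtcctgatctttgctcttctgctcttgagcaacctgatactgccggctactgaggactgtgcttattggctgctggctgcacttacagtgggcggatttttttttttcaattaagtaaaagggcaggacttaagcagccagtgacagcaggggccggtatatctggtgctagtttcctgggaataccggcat

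G0s2, an inhibitor of the lipase that begins triglyceride breakdown in lipid droplets, had the smallest p among genes higher on the ketogenic diet. Ketogenic libraries spanned 59.8 to 107 CPM with a median of 83.1, and high-fat libraries 12.0 to 55.8 CPM with a median of 34.2. The groups did not overlap. The log2 difference was 1.23 ± 0.30 (SE; 95% interval 0.61 to 1.86), or 2.35-fold, with an unadjusted p of 0.000544. In all, 7 genes had every ketogenic library above every high-fat library (0.0523%), and 11 had every one below (0.0822%). Some genes would separate in this way even if no gene differed. That number was not worked out, so a lack of overlap is not by itself read as a difference. G0s2 averaged 38.7 ± 19.4 CPM in control livers (SD, n = 5). Its difference ranged from 1.01 without ketogenic 0, 1 and 4 to 1.45 without high-fat 2 and 3.

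**Figure D1:**
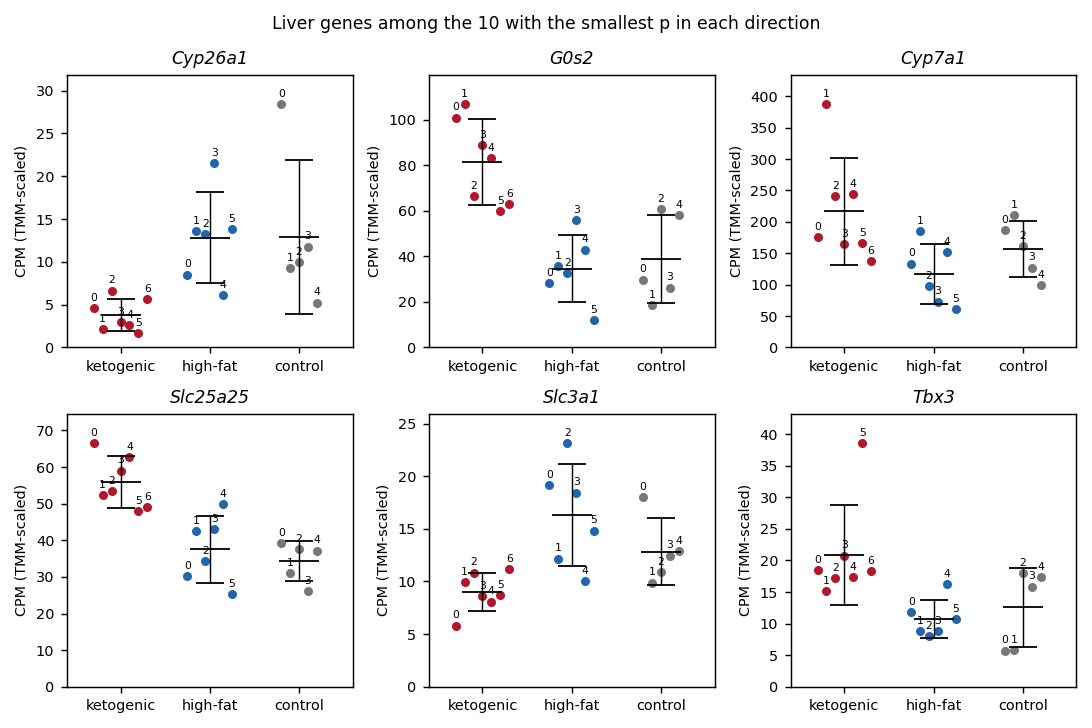
Level of 6 genes in each liver library, in CPM scaled by TMM factors, on linear axes from 0. Points are libraries numbered by replicate, with ketogenic left, high-fat in the middle and control right, and bars show the mean and SD. Cyp26a1 and Slc3a1 sit lower and G0s2, Cyp7a1, Slc25a25 and Tbx3 higher in most ketogenic libraries. G0s2 is the gene without overlap, with ketogenic libraries from 59.8 CPM and high-fat libraries up to 55.8 CPM.

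The other genes with small p on the higher side were of mixed function. Slc25a25, a mitochondrial carrier that exchanges ATP-Mg for phosphate, had 48.0 to 66.5 CPM in ketogenic and 25.3 to 49.9 CPM in high-fat libraries (log2 difference 0.57 ± 0.15, SE). Txnip, which holds thioredoxin and restrains glucose uptake, had 17.0 to 28.3 CPM in ketogenic and 14.1 to 20.2 CPM in high-fat libraries (0.52 ± 0.14). Tbx3, a T-box transcription factor of hepatocytes around the central vein, had 15.2 to 38.6 CPM in ketogenic and 8.03 to 16.3 CPM in high-fat libraries (0.96 ± 0.28). Its highest value came from ketogenic 5. Uros, an enzyme of heme synthesis, and Uck1, a uridine-cytidine kinase, had log2 differences of 0.71 ± 0.19 and 0.55 ± 0.15. Pptc7, a mitochondrial phosphatase, and Tox, a nuclear HMG-box factor, had 0.59 ± 0.16 and 0.68 ± 0.20. Fam73b, a protein of the outer mitochondrial membrane, had 0.61 ± 0.16. Unadjusted p-values of these 8 genes lay between 0.000822 for Slc25a25 and 0.00259 for Tbx3.

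On the lower side, Slc3a1, the heavy subunit of the dibasic amino acid and cystine transporter, had 5.80 to 11.1 CPM in ketogenic and 10.0 to 23.1 CPM in high-fat libraries. Its log2 difference was -0.86 ± 0.19 (SE) with an unadjusted p of 0.000167. Prepl, a serine peptidase, lies next to Slc3a1 on chromosome 17 and had a difference of -0.44 ± 0.13. Slc10a2, the sodium-dependent bile acid transporter, had 3.76 to 7.56 CPM in ketogenic and 5.05 to 17.7 CPM in high-fat libraries (-0.89 ± 0.26). The prostaglandin transporter Slco2a1 had -0.50 ± 0.15 and nonmuscle myosin Myh10 had -0.74 ± 0.22. Cdh1, the E-cadherin of periportal hepatocytes and bile duct cells, had 4.55 to 11.9 CPM in ketogenic and 5.14 to 30.6 CPM in high-fat libraries (-1.31 ± 0.40). Hnrnpul1, an RNA-binding protein, had the smallest of these differences, -0.33 ± 0.10, yet no overlap. Its libraries spanned 19.9 to 26.1 CPM on the ketogenic and 26.6 to 32.2 CPM on the high-fat diet. Mug2, a murinoglobulin protease inhibitor, and Clec1b, a C-type lectin of sinusoidal cells and platelets, had -0.48 ± 0.15 and -0.50 ± 0.16. Unadjusted p-values of these genes after Slc3a1 lay between 0.00253 for Slc10a2 and 0.00451 for Clec1b.

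Genes of fatty acid oxidation mostly had higher levels on the ketogenic diet, without any member past the threshold. Of 31 further PPAR alpha targets 29 were tested, and of these 27 had a log2 difference above 0 and 2 below, with a median of 0.39 beside 0.0084 over all genes tested. An unadjusted p under 0.05 was found for 9 of the 29, all higher. Of 26 genes of peroxisomal and omega oxidation, all tested, 23 were above 0 and 6 had an unadjusted p under 0.05, with a median of 0.27. Of 17 tested genes of mitochondrial beta-oxidation, among 18 listed, 16 were above 0 and 3 had an unadjusted p under 0.05, with a median of 0.20. All 7 tested of 8 carnitine shuttle genes were above 0, with a median of 0.22. Over all genes tested 51.6% were above 0. The lists share members and were chosen with earlier results of these data known, so the counts describe them and are not a test.

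**Figure D2:**
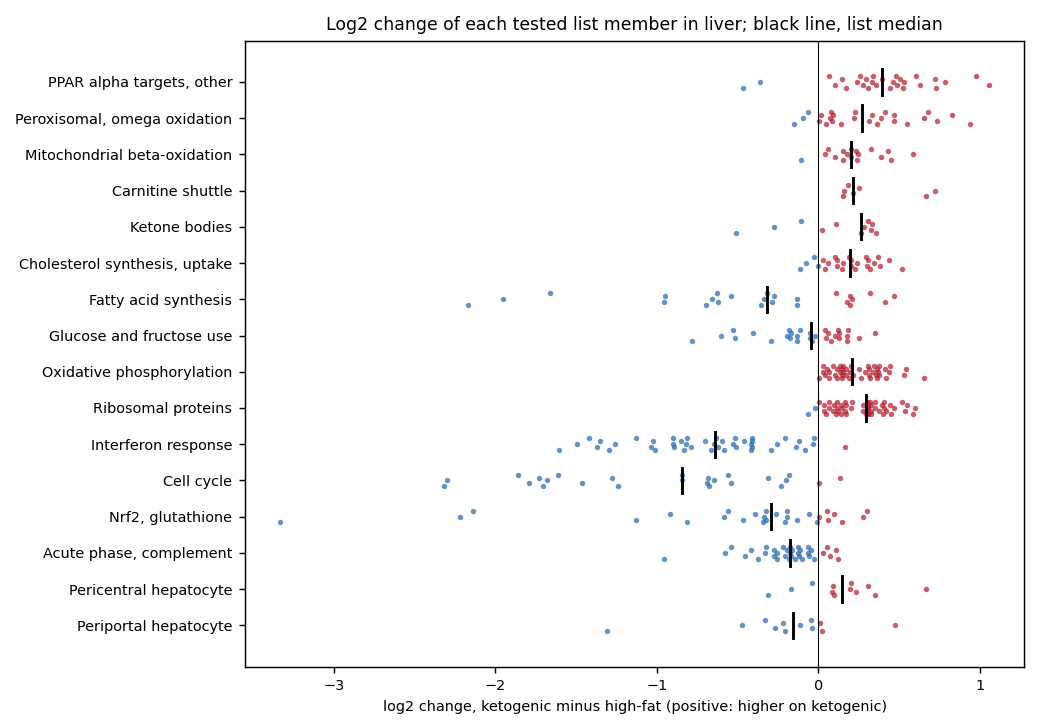
Log2 difference, ketogenic minus high-fat liver, of every tested member of 16 gene lists. Each point is a gene, red above 0 and blue below, spread vertically for sight only, and the black line is the list median. The oxidation lists lie right of 0, with a median of 0.39 for the other PPAR alpha targets, and fatty acid synthesis, interferon and cell cycle lie left, with medians of -0.32, -0.64 and -0.84.

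Within these lists the omega-hydroxylases of the Cyp4a family, classic PPAR alpha targets that start the breakdown of fatty acids from the methyl end, were among the members farthest from 0. Cyp4a14 had 480 to 769 CPM in ketogenic livers with a median of 691, and 34.3 to 626 CPM in high-fat livers with a median of 381. Its log2 difference was 0.94 ± 0.38 (SE; 95% interval 0.14 to 1.73, unadjusted p = 0.0234). High-fat 5 was far below the others at 34.3 CPM, and high-fat 4, at 626 CPM, lay inside the ketogenic range. The difference of Cyp4a14 was 0.70 without high-fat 5 and 1.33 by limma-voom. Cyp4a10 showed the same libraries apart, with 230 to 423 CPM in ketogenic livers and 62.1 to 410 CPM in high-fat livers. High-fat 5 was lowest and high-fat 4 highest, and ketogenic 6 was the lowest ketogenic library (log2 difference 0.83 ± 0.31, SE). Cyp4a10, Cyp4a14 and their neighbours are close copies, and how reads shared between such copies were counted is not given in the sources used here.

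Acot1, which releases fatty acids from acyl-CoA, had 17.0 to 55.1 CPM in ketogenic and 5.96 to 20.9 CPM in high-fat livers (log2 difference 0.78 ± 0.26, SE). The lowest high-fat value was again high-fat 5, and the highest ketogenic value was ketogenic 0. Without ketogenic 0, 1 and 4 the difference of Acot1 was 0.39. Angptl4, a secreted inhibitor of lipoprotein lipase, had 27.6 to 41.5 CPM in ketogenic and 8.32 to 32.8 CPM in high-fat livers (0.63 ± 0.24). With any 1 library left out the difference of Angptl4 was 0.45 to 0.74. Vnn1, a pantetheinase, had 0.73 ± 0.30, and the lipid droplet coat genes Plin4 and Plin5 had 0.98 ± 0.39 and 0.48 ± 0.22. Without ketogenic 0, 1 and 4 Vnn1 was at 0.48 and Plin5 at 0.19. Pex11a, which divides peroxisomes, had 106 to 191 CPM in ketogenic and 38.2 to 107 CPM in high-fat livers (0.68 ± 0.22). Ech1, a dienoyl-CoA isomerase, was 1 of the 7 genes without overlap on the higher side. Its ketogenic libraries spanned 124 to 191 CPM and its high-fat libraries 61.9 to 123 CPM (0.47 ± 0.18).

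The carnitine transporter Slc22a5 had 6.11 to 11.8 CPM in ketogenic and 2.11 to 8.68 CPM in high-fat livers (0.67 ± 0.25). Cpt1a, which loads long-chain fatty acids onto carnitine, differed little in the estimate, at 0.18 ± 0.17. Its 95% interval was -0.18 to 0.54, the estimate was 0.03 without ketogenic 6 and high-fat 5, and the groups overlapped, with 57.0 to 82.1 CPM in ketogenic and 35.8 to 84.3 CPM in high-fat livers. Among enzymes of beta-oxidation, the isomerases Eci1 and Eci2 had 0.39 ± 0.19 and 0.45 ± 0.18, and the short-chain dehydrogenase Acads had 0.43 ± 0.20. The peroxisomal thiolase Acaa1a had 0.47 ± 0.18. Without ketogenic 0, 1 and 4 these were 0.21 for Eci1, 0.29 for Eci2, 0.029 for Acads and 0.25 for Acaa1a. Ppara itself had 0.12 ± 0.18 and its coactivator Ppargc1a -0.10 ± 0.17, with intervals of -0.25 to 0.49 and -0.45 to 0.25.

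Genes of ketone bodies had differences about as large as those of the oxidation lists. Of 12 listed genes of ketone synthesis, use and transport, 11 were tested, 8 of them above 0, with a median of 0.26. Bdh1, which reduces acetoacetate to beta-hydroxybutyrate, had 39.3 to 68.1 CPM in ketogenic livers and 20.2 to 53.2 CPM in high-fat livers. Its log2 difference was 0.26 ± 0.23 (SE; 95% interval -0.22 to 0.74). Slc16a1, a monocarboxylate transporter that carries ketone bodies, had 0.33 ± 0.16 with an unadjusted p of 0.0466, and 0.17 without ketogenic 0, 1 and 4. The difference of Bdh1 was 0.12 without high-fat 5. Without ketogenic 6 and high-fat 5 the list median was 0.16, with 6 members above 0 and 5 below.

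Fgf21 and Pdk4, genes usually high in fasting and ketosis, were not told apart by the test. Fgf21, a hepatokine, had 1.47 to 6.99 CPM in ketogenic and 0.909 to 2.54 CPM in high-fat livers, with a log2 difference of 1.06 ± 0.52 (SE; 95% interval -0.02 to 2.14). Only 5 of 7 ketogenic libraries lay above the high-fat mean. Pdk4, which shuts off pyruvate oxidation, had 11.3 to 32.1 CPM in ketogenic and 10.4 to 23.4 CPM in high-fat livers (0.39 ± 0.33; 95% interval -0.30 to 1.09).

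Genes of fatty acid synthesis mostly had lower estimates on the ketogenic diet, and library by library they split each diet. Of 25 genes, all tested, 17 had a log2 difference below 0 and 8 above. The list median was -0.32, and -0.12 without high-fat 5. Over all genes tested 3.19% had an unadjusted p under 0.05, and 1 of the 25 did. That gene was Scd1, which makes oleate from stearate. Its ketogenic libraries had 213 to 3291 CPM with a median of 378, and its high-fat libraries 301 to 7686 CPM with a median of 1745. The high ketogenic value was ketogenic 6 alone, since the other 6 lay at 529 CPM or below. The low high-fat value was high-fat 4, the highest was high-fat 5, and the other 4 lay between 995 and 2245 CPM. The log2 difference was -1.66 ± 0.74 (SE; 95% interval -3.23 to -0.10, unadjusted p = 0.0387). It was -2.79 without ketogenic 6 and -0.86 without high-fat 5. Without both it was -1.98.

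Fasn, the fatty acid synthase, had 55.2 to 241 CPM in ketogenic and 73.9 to 547 CPM in high-fat livers (-0.95 ± 0.52). Ketogenic 6 and high-fat 5 were again the highest of their diets, and without both the difference was -0.64. It was -1.41 without ketogenic 6 alone and -0.18 without high-fat 5 alone. Acly, Acaca and Elovl6, which supply and elongate the chain, had -0.66 ± 0.37, -0.62 ± 0.31 and -0.70 ± 0.49. In each of them high-fat 5 was highest, at 202 CPM for Acly, 131 CPM for Acaca and 233 CPM for Elovl6. Without ketogenic 6 and high-fat 5 the differences were -0.31 for Acly, -0.37 for Acaca and -0.31 for Elovl6. Without high-fat 5 alone they were -0.12 for Acly, -0.24 for Acaca and -0.048 for Elovl6. Srebf1, the gene of Srebp-1c, had 31.2 to 42.4 CPM in ketogenic and 35.4 to 68.4 CPM in high-fat livers (-0.33 ± 0.18), with all 7 ketogenic libraries below the high-fat mean. Gpam, the first step of triglyceride synthesis, had -0.61 ± 0.27. Without high-fat 5 Srebf1 was at -0.19 and Gpam at -0.33, and Gpam was at -0.37 without ketogenic 0, 1 and 4. Fads2, a desaturase of polyunsaturated fatty acids, lay on the other side, at 0.42 ± 0.21. The monoglyceride lipase Mgll had 0.35 ± 0.15.

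**Figure D3:**
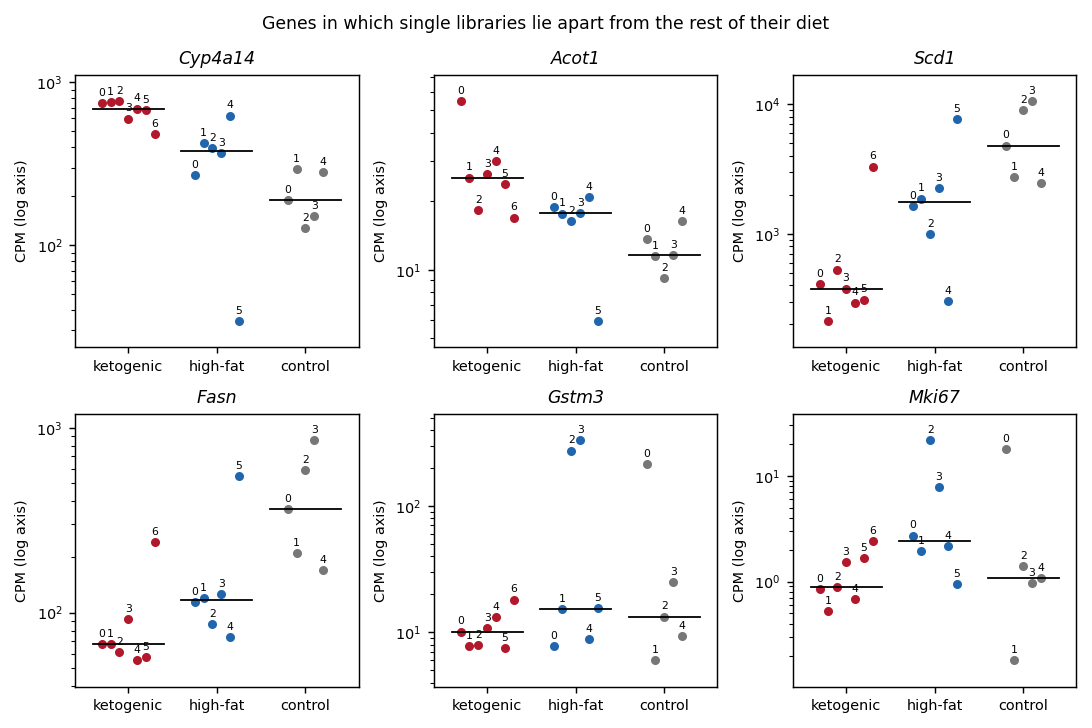
Level of 6 genes in each liver library in CPM, on log axes. Points are libraries numbered by replicate, with ketogenic left, high-fat in the middle and control right, and the line is the group median. In Cyp4a14 and Acot1 high-fat 5 lies below the others, at 34.3 and 5.96 CPM. In Scd1 and Fasn ketogenic 6 and high-fat 5 lie above, and in Gstm3 and Mki67 high-fat 2 and 3 do, with Gstm3 at 274 and 331 CPM.

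Among genes of glucose use, the same split showed in Pklr, the liver pyruvate kinase. Pklr had 16.4 to 53.1 CPM in ketogenic and 17.0 to 110 CPM in high-fat livers (-0.78 ± 0.37). Ketogenic 6 and high-fat 5 were the highest of their diets, and without high-fat 5 the difference was -0.34. Tkt, a transketolase of the pentose phosphate pathway, was without overlap on the lower side. It had 14.4 to 18.3 CPM in ketogenic and 18.5 to 27.6 CPM in high-fat livers (-0.41 ± 0.14). Pgd, which makes NADPH in the same pathway, had -0.53 ± 0.21, and Pygl, the liver glycogen phosphorylase, had -0.48 ± 0.17, and -0.28 without high-fat 5. Over the list of glucose and fructose use, 17 of 30 genes were below 0 and the median was -0.04, with 3 at an unadjusted p under 0.05.

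Among genes of gluconeogenesis, Pck1 had 204 to 654 CPM in ketogenic and 151 to 753 CPM in high-fat livers, with a difference of 0.47 ± 0.37 (95% interval -0.30 to 1.25). The lowest ketogenic value was ketogenic 6, the highest high-fat value high-fat 4 and the lowest high-fat 5. G6pc, the last step of glucose release, had 0.35 ± 0.20. Oat, an ornithine aminotransferase of hepatocytes near the central vein, had 115 to 227 CPM in ketogenic and 54.5 to 137 CPM in high-fat livers (0.67 ± 0.24). Got1, an aspartate aminotransferase, had 0.39 ± 0.19. Igfbp2, a binding protein of insulin-like growth factors, had 45.1 to 141 CPM in ketogenic and 41.1 to 85.6 CPM in high-fat livers (0.60 ± 0.24, and 0.26 without ketogenic 0, 1 and 4). Igf1 had 0.16 ± 0.14, Igfbp1 0.13 ± 0.49 and the insulin receptor substrate Irs2 0.01 ± 0.25, and the interval of Igfbp1, -0.91 to 1.17, is wide.

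Cyp7a1, the rate-limiting enzyme of bile acid synthesis, was among the 10 genes with the smallest p on the higher side. Ketogenic libraries spanned 138 to 388 CPM with a median of 176, and high-fat libraries 61.5 to 185 CPM with a median of 115. The log2 difference was 0.89 ± 0.27 (SE; 95% interval 0.34 to 1.44, unadjusted p = 0.00301), and all 7 ketogenic libraries lay above the high-fat mean. It was 0.60 without ketogenic 0, 1 and 4. Ketogenic livers averaged 217 ± 85.4 CPM (SD, n = 7), against 117 ± 48.0 CPM in high-fat livers (SD, n = 6) and 157 ± 44.7 CPM in control livers (SD, n = 5). Cyp8b1, which sets the share of cholic acid, had 0.53 ± 0.30, and 0.22 without high-fat 2 and 3. The phospholipid exporter Abcb4 had 0.36 ± 0.17. Of 26 tested genes of cholesterol synthesis and uptake, among 27 listed, 22 were above 0, with a median of 0.19 and 1 at an unadjusted p under 0.05. That gene was Idi1, an isomerase of the isoprenoid chain, at 0.52 ± 0.24. Cyp51 had 0.38 ± 0.19, and 0.24 without ketogenic 0, 1 and 4, and Sqle, the squalene epoxidase, 0.24 ± 0.15.

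Interferon genes were high in 2 of the high-fat libraries. Of 44 listed and tested, 43 had a log2 difference below 0 and 1 above, with a median of -0.64 and 9 at an unadjusted p under 0.05. Their summed level was 408 to 526 CPM in the 7 ketogenic libraries. In high-fat 2 and 3 it was 1086 and 847 CPM, and in the other 4 high-fat libraries 312 to 502 CPM. Without high-fat 2 and 3, 26 of 43 were above 0 and 17 below, with a median of 0.03. Ifi44, an interferon-induced gene, had 2.50 to 4.79 CPM in ketogenic livers. It had 32.7 and 16.3 CPM in high-fat 2 and 3 and 1.6 to 5.47 CPM in the other high-fat livers. Its log2 difference was -1.61 ± 0.63 (SE) with all libraries and 0.03 without high-fat 2 and 3. Oas3 and Oasl2, of the family that senses double-stranded RNA, had -1.35 ± 0.47 and -1.01 ± 0.39, against -0.36 and -0.04 without those libraries. Dhx58, a helicase of the same response, had -0.79 ± 0.29 and -0.15.

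The same libraries were high in cell cycle genes. Of 31 listed, 25 were tested, of which 23 were below 0 and 8 had an unadjusted p under 0.05, with a median of -0.84. The summed level was 52.0 to 86.7 CPM in ketogenic libraries, 203 and 189 CPM in high-fat 2 and 3, and 46.1 to 68.9 CPM in the other high-fat libraries. Without high-fat 2 and 3, 14 were above 0 and 11 below, with a median of 0.06. Mki67, a marker of dividing cells, had 0.523 to 2.43 CPM in ketogenic livers and 21.7 and 7.76 CPM in high-fat 2 and 3. Its difference was -2.32 ± 0.89, and -0.63 without them. Rrm2, a ribonucleotide reductase subunit, had -1.73 ± 0.52 and -0.47, the kinase Cdk1 -2.30 ± 0.77 and -0.19, and cyclin Ccna2 -1.71 ± 0.60 and 0.03. These are low levels, and at such depth the counts behind Cdk1 in several libraries are few or 0.

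Glutathione genes followed the same pair of libraries. Of 28 Nrf2 targets and glutathione genes, all tested, 21 were below 0 and 5 had an unadjusted p under 0.05, with a median of -0.30. Without high-fat 2 and 3 the median of the 27 tested was 0.09, with 15 above 0. Gstm3, a mu-class glutathione transferase, had 7.52 to 18.1 CPM in ketogenic livers. It had 274 and 331 CPM in high-fat 2 and 3 and 7.72 to 15.6 CPM in the other high-fat livers. The log2 difference was -3.33 ± 1.06 with all libraries and -0.13 without these. Gstm1 had 446 to 1065 CPM in ketogenic livers, 2367 and 3503 CPM in high-fat 2 and 3, and 385 to 1036 CPM in the other high-fat livers (-1.13 ± 0.41, and -0.10 without them). Gclc, the catalytic subunit that limits glutathione synthesis, was less tied to them, with -0.33 ± 0.13 and -0.25. Cyp2a4, a steroid hydroxylase higher in female than in male mouse liver, had at most 0.991 CPM in ketogenic livers, 14.4 and 10.5 CPM in high-fat 2 and 3, and at most 0.541 CPM in the other high-fat livers. Its difference was -3.84 ± 1.52 with all libraries and 1.16 without those. Mup15, a major urinary protein gene, had 98.2 to 228 CPM in ketogenic livers, 6.68 and 20.9 CPM in high-fat 2 and 3, and 93.1 to 664 CPM in the other high-fat livers. The difference of Mup15 was -0.85 ± 0.89 with all libraries, -1.41 without high-fat 2 and 3, and 0.37 by limma-voom. The Gstm, Cyp2a and Mup genes lie among close copies, so reads may be shared. Control 0 was also high in these groups, with Gstm3 at 215 CPM, an interferon sum of 1412 CPM and a cell cycle sum of 309 CPM.

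**Figure D4:**
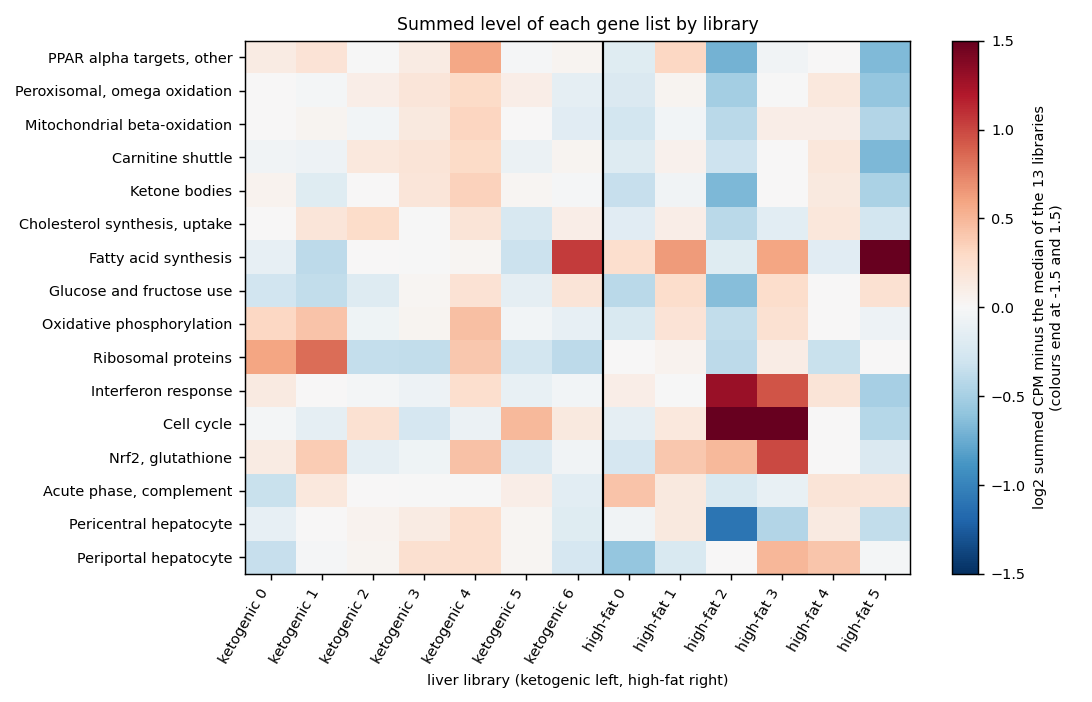
Summed level of 16 gene lists in the 13 liver libraries, as log2 CPM minus the median of the 13 libraries. Rows are lists, columns are libraries with ketogenic left of the black line and high-fat right, and colours end at -1.5 and 1.5. High-fat 2 and 3 stand out in the interferon and cell cycle rows, high-fat 5 and ketogenic 6 in fatty acid synthesis, and ketogenic 0, 1 and 4 in ribosomal proteins.

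Ribosomal protein and respiratory chain genes were nearly all above 0, and another set of libraries was high in them. Of 52 tested ribosomal protein genes, among 53 listed, 50 were above 0, with a median of 0.30 and 0 at an unadjusted p under 0.05. All 46 nuclear genes of oxidative phosphorylation were above 0, with a median of 0.21 and 1 at an unadjusted p under 0.05. The ribosomal sum was 5126, 6051 and 4475 CPM in ketogenic 0, 1 and 4 and 2582 to 2809 CPM in the other ketogenic libraries, against 2577 to 3670 CPM in high-fat libraries. Without ketogenic 0, 1 and 4 the ribosomal median was -0.29 with 0 of 52 above 0, and that of oxidative phosphorylation was -0.11 with 8 of 46 above 0. Rps25 had a difference of 0.54 ± 0.30, and -0.20 without these libraries. Ndufb3, a subunit of complex I, had 0.44 ± 0.19, and 0.12 without them. The same libraries were high in short genes generally. In the shortest 25% of tested nuclear genes the median deviation from the mean of the 13 libraries was 0.15, 0.22 and 0.25 (log2) in ketogenic 0, 1 and 4, and -0.07 in each of the other 4 ketogenic libraries. High-fat libraries spanned -0.17 to 0.13, with high-fat 3 at 0.13 and high-fat 1 at 0.10, and both of these were kept. Leaving out only ketogenic libraries that were high in these genes lowers the medians by construction. The values without them are therefore a description and not a test. The part of transcript length in the differences of these lists was not tested beyond these values.

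Transcripts of the mitochondrial chromosome were above 0 for 12 of 13 genes, with a median of 0.25 and 2 at an unadjusted p under 0.05. mt-Co3, a subunit of cytochrome oxidase, had 2838 to 5488 CPM in ketogenic and 2018 to 3386 CPM in high-fat livers (0.58 ± 0.19, and 0.28 without ketogenic 0, 1 and 4). mt-Nd2, a subunit of complex I, had 0.57 ± 0.26, and its lowest ketogenic value was ketogenic 6, at 960 CPM.

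**Figure D5:**
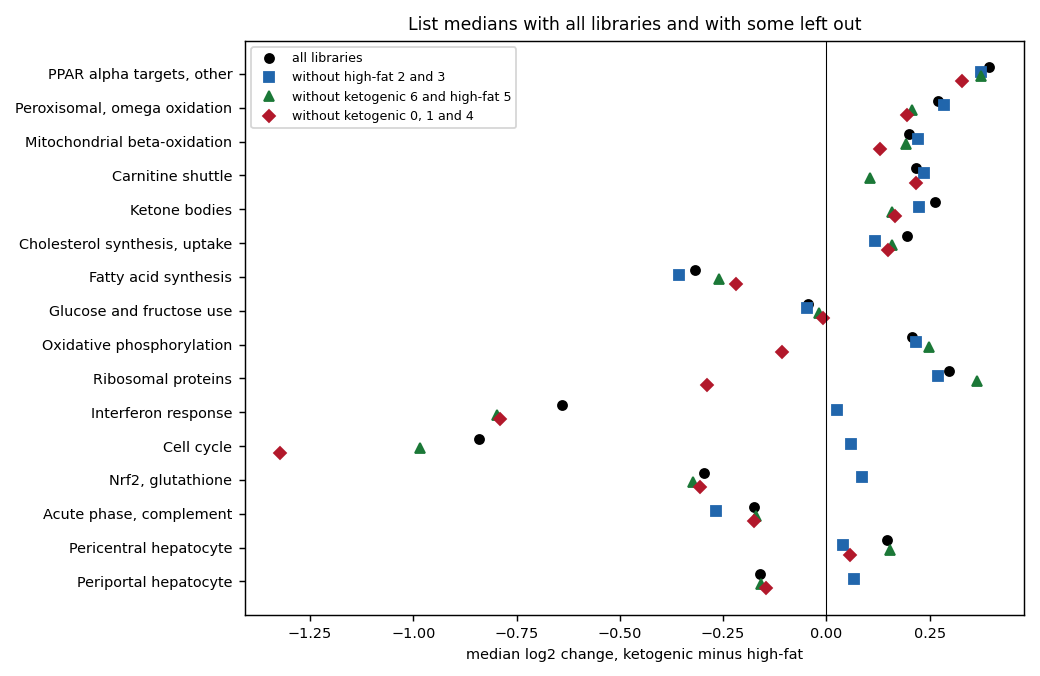
Median log2 difference, ketogenic minus high-fat, of 16 gene lists with all libraries (black circles) and with 3 sets of libraries left out (coloured). The sets were chosen after the data had been seen. The medians of the fatty acid oxidation lists stay right of 0 and fatty acid synthesis stays left. Interferon moves from -0.64 to 0.03 without high-fat 2 and 3, and ribosomal proteins from 0.30 to -0.29 without ketogenic 0, 1 and 4.

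The oxidation lists kept their direction when these libraries were left out, in sets chosen after the data had been seen. The values describe the lists and are not a test. The other PPAR alpha targets had a median of 0.37 without high-fat 2 and 3, 0.38 without ketogenic 6 and high-fat 5, and 0.33 without ketogenic 0, 1 and 4. An unadjusted p under 0.05 was found for 6, 6 and 2 members under these 3 settings, against 9 with all libraries. For peroxisomal and omega oxidation these counts were 8, 6 and 0, against 6, and for mitochondrial beta-oxidation 1, 1 and 0, against 3. Peroxisomal and omega oxidation had medians of 0.29, 0.21 and 0.19 under the same settings, and mitochondrial beta-oxidation had 0.22, 0.19 and 0.13. Fatty acid synthesis had -0.36, -0.26 and -0.22, and -0.12 without high-fat 5 alone.

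No marker list of other cells or of liver zones had a member past the threshold. Of 12 pericentral markers 9 were above 0, with a median of 0.15, and of 12 periportal markers 9 were below 0, with a median of -0.16. Without high-fat 2 and 3 these medians were 0.04 and 0.07. The summed pericentral level was 5158 to 6970 CPM in ketogenic libraries, 2752 CPM in high-fat 2, 4333 CPM in high-fat 3 and 4545 to 6498 CPM in the other high-fat libraries. Glul, glutamine synthetase of the innermost pericentral cells, had 0.20 ± 0.21, and -0.047 without high-fat 2 and 3. Cyp2f2, a periportal cytochrome, had -0.47 ± 0.18, and -0.33 without ketogenic 0, 1 and 4. Other members went the other way. Below 0 were 3 pericentral markers, the lowest at -0.31, and above 0 were 3 periportal markers, the highest being Pck1 at 0.47. In bulk liver, fewer cells of a type and less RNA per cell cannot be told apart. Of 16 tested macrophage and Kupffer cell markers 11 were below 0 with a median of -0.15, and their sum was 133 to 261 CPM in ketogenic and 156 to 282 CPM in high-fat livers. All 8 tested cholangiocyte markers were below 0, with a median of -0.36 and 0 at an unadjusted p under 0.05. Their sum was 34.8 to 58.7 CPM in ketogenic and 46.6 to 78.4 CPM in high-fat livers, highest in high-fat 3. Of 9 tested lymphocyte markers 5 were above 0, and their sum was 7.09 to 19.7 CPM in ketogenic and 8.36 to 18.2 CPM in high-fat livers. Of 6 tested erythroid markers 5 were above 0, with a median of 0.69, and 0.40 without ketogenic 0, 1 and 4. Their sum was 55.6 to 134 CPM in ketogenic and 33.3 to 123 CPM in high-fat livers, and Alas2, the erythroid enzyme that begins heme synthesis, was the member below 0. Of 7 tested adipocyte markers 6 were above 0, with a median of 0.36, and their sum was 1385 to 2598 CPM in ketogenic and 1024 to 2220 CPM in high-fat livers. Their defining member Adipoq had at most 1 count in any library. Of 15 tested stellate cell and matrix markers 12 were below 0, with a median of -0.24. The part of these cells in the other results was not tested. Of 13 listed acinar markers 1 was tested, at 0.19, and -0.25 without ketogenic 0, 1 and 4. Another acinar marker, Prss1, had 0 counts.

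Several further genes were looked at whatever their result. Rora, a nuclear receptor of the clock, was without overlap on the lower side, with 56.4 to 81.8 CPM in ketogenic and 84.6 to 109 CPM in high-fat livers (-0.39 ± 0.13). Nr1i3, the receptor CAR, had 0.46 ± 0.18. Mup2 had 0.86 ± 0.41, and 0.57 without high-fat 2 and 3. Complement C9 had 85.2 to 174 CPM in ketogenic and 119 to 224 CPM in high-fat livers (-0.58 ± 0.20), and 31 of 36 tested acute phase and complement genes were below 0, with a median of -0.17. Hamp, the iron hormone hepcidin, had 134 to 654 CPM in ketogenic and 18.2 to 416 CPM in high-fat livers, the low value being high-fat 0 alone (0.27 ± 0.58, and -0.68 without ketogenic 0, 1 and 4). The intervals of Foxo3 (-0.35 to 0.11), Saa1 (-0.92 to 0.27), Mt1 (-1.25 to 0.37), Mt2 (-1.47 to 0.75), Asns (-2.18 to 0.56) and Mup20 (-0.45 to 1.00) all held 0. The differences of these 6 genes were -0.12, -0.32, -0.44, -0.36, -0.81 and 0.28.

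The authors' deposited table gives another count for the same samples. It lists 226 genes at an FDR under 0.05 for this pair of diets, 173 with a positive and 53 with a negative fold change, whose sign follows high-fat over ketogenic in 225 of the 226. Of these genes 199 were tested here, all 199 with the same direction, and 98 had an unadjusted p under 0.05, which 3.19% of all genes tested had. In the authors' deposited table the FDR was 1.24e-72 for Gstm3, 3.37e-20 for Mki67 and 1.83e-14 for Ifi44, the genes high in high-fat 2 and 3. That table also gives an FDR of 2.87e-16 for Cyp26a1, 2.2e-07 for G0s2, 0.00028 for Cyp7a1 and 0.000248 for Cyp4a14, and 0.769 for Pdk4. The authors' deposited table and the fit used here share every library, so neither is a replicate of the other.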

How the data were processed

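Liver RNA was reverse transcribed and amplified as cDNA and sequenced as 18 barcoded libraries pooled over 4 lanes, per the labels' protocols. The deposited table holds raw counts per gene, on build mm9. TopHat2 2.0.11, Subread, featureCounts, edgeR and DESeq 1 are named in the submitters' processing notes, with no role or order. The authors' deposited false discovery rates (adjusted p-values) and log2 fold changes were read for comparison only. The strand setting of the counting is not given in the sources used here.

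From the counts, edgeR 4.0.16 (R 4.3.3) fitted a robust quasi-likelihood model with TMM factors to all 18 liver libraries. Genes were kept by filterByExpr with a minimum count of 10, and Benjamini-Hochberg adjustment ran over 13374 genes with a threshold of 0.05. CPM values are scaled by the TMM factors. DESeq2 1.42.0 and limma 3.58.1 served as alternatives. The test was also run on simulated counts in which no library was made to stand apart. That run does not show how the test behaves with such libraries. The genes named were the 10 with the smallest p in each direction above a mean log2 CPM of 2, up to 4 members per pathway list, and 36 genes named whatever their result; some of these are not reported here. The members and lists were chosen with earlier results of these data known. The labels do not say that each library came from its own mouse, so the p-values reflect variation among libraries, which may be technical. The table's 36 other per-sample columns and the kidney table's 72 were not used.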

Additional observations from a re-analysis of the deposited data

Results flagged for a closer look

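In 20 of 194 gene and diet groups, and in 2 of 94 list and diet groups, 1 library lay far from the others of its diet by Dixon's criterion. Chance alone gives about 1 in 20, and over all genes tested 6.82% of groups met it. Ketogenic 6 was the highest of its diet in Scd1 (3291 CPM), Fasn (241 CPM), Gpam (148 CPM), Rrm2 (3.94 CPM) and the summed fatty acid synthesis genes (6939.8 CPM). It was the lowest in Cyp4a10 (230 CPM), Pck1 (204 CPM) and mt-Nd2 (960 CPM). High-fat 5 was the highest of its diet in Fasn (547 CPM), Acly (202 CPM) and Acaca (131 CPM). It was the lowest in Cyp4a14 (34.3 CPM), Acot1 (5.96 CPM), Angptl4 (8.32 CPM) and Slc22a5 (2.11 CPM). Ketogenic 5 was highest in Tbx3 (38.6 CPM), Clec1b (7.96 CPM) and Mt2 (2.33 CPM). Ketogenic 4 was highest in Ech1 (191 CPM) and in the summed further PPAR alpha targets (9303 CPM). Ketogenic 0 was lowest in Cyp2f2 (205 CPM), and high-fat 0 was lowest in Hamp (18.2 CPM).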

How the results depend on the processing

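Over 35 alternatives, 85 of 97 gene results never changed sign, and 31 of 47 list medians did so at least once. The alternatives reuse nearly the same libraries, and some of the genes were named for a small p. A kept sign is therefore not independent evidence, and the share over all genes tested was not worked out. Genes called numbered 1 (1 lower) by DESeq2 and by the likelihood ratio test, 4 (2 higher, 2 lower) by DESeq2 on the 13 libraries, chosen after seeing the data, and 0 elsewhere, also when any 1 library was left out (0 to 0). The replicate block called 0. Deviations of same-numbered ketogenic and high-fat libraries had correlations of -0.16 to 0.24, and the own number matched best in 1 of 6. Paired libraries need not deviate together over all genes, so this cannot settle whether the numbers pair them. The labels do not say what the numbers mean. The sets of several libraries left out were also chosen after seeing the data. The following genes changed sign, and the cause was not tested. Without high-fat 2 and 3, and also without control 0, Ccna2 was 0.029 and 0.038, Ifi44 0.028 and 0.028, Cyp2a4 1.16 and 1.16, Glul -0.047 and -0.047, Irs2 -0.31 and -0.31, and Igfbp1 -0.13 and -0.13. Without ketogenic 0, 1 and 4, Rps25 was -0.20, Hamp -0.68, Mup20 -0.21 and Igfbp1 -0.28. With no normalization factors, which moved the median of all genes to -0.17, Ppara was -0.042, Igf1 -0.015, Irs2 -0.14 and Igfbp1 -0.033. Irs2 was -0.0078 with upper quartile factors, -0.0051 with no filter and -0.0012 with a minimum count of 50. limma-voom gave Mup15 0.37 and Igfbp1 -0.017. With 1 library left out, Irs2 ranged from -0.14 to 0.14, Igfbp1 from -0.14 to 0.29, and the difference in total counts from -0.960 to 1.99 M. Genes below about 1 CPM rest on few counts.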
